A study of Sordaria macrospora with 8 samples.

Results

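Wild-type H3K56ac domains that the histone chaperone mutant Δasf1 carries as separate pieces were examined in the ascomycete *Sordaria macrospora*. The domains were defined by the peak lists themselves: a wild-type peak was called broken when at least 2 separate Δasf1 intervals each overlapped it by at least 1 bp. There were 709 such peaks among 7426 wild-type peaks. The overlap of both lists chose these peaks, so their number of pieces, covered share and holes describe them and were not tested.

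H3K56ac is the acetylation of lysine 56 in the globular core of histone H3, near the place where DNA enters and leaves the nucleosome. In budding yeast the acetyltransferase Rtt109 places this mark on newly made H3 before it is built into chromatin, and it does so on H3-H4 that is bound to the chaperone Asf1. The mark therefore follows new nucleosomes, both behind the replication fork and at genes where nucleosomes are exchanged.

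Mycelium was harvested from the wild type and from delta-asf1, the deletion strain written Δasf1 here, with 2 immunoprecipitated samples and 2 input samples without antibody per genotype. Both were grown in liquid complete medium in constant light at 27 °C, the wild type for 2 days and the slower Δasf1 for 3 days, which the labels give as the time to an equal developmental stage. Chromatin was cross-linked, digested with micrococcal nuclease and immunoprecipitated with an antibody against H3K56ac. Genotype and growth time differ together and cannot be told apart.

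The authors deposited 1 pooled peak list per strain, with no value per replicate and no read depth. Each interval given below for a share (95% Wilson) or a median (order statistics) therefore covers the spread over peaks only, and says nothing about the spread between cultures. The lists held 7426 wild-type and 7107 Δasf1 peaks after the rRNA end of chromosome 2 was left out. Enrichment was low throughout, with a median fold over background of 1.25 in the wild type and 1.26 in Δasf1. Neighbouring peaks were never closer than 1084 bp in the wild type and 1066 bp in Δasf1, so a hole between 2 pieces could not be shorter than that. A hole is a stretch without a listed Δasf1 peak, and whether it lacks acetylation was not measured.

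Of the wild-type peaks, 9.55% were broken (8.90% to 10.2%). Most of them, 631 of 709, met 2 Δasf1 pieces, 69 met 3, 8 met 4, and 1 met 5. A further 5463 wild-type peaks met a single Δasf1 peak and 1254 met none. In the opposite direction 610 of the 7107 Δasf1 peaks, 8.58% (7.95% to 9.26%), were broken by wild-type intervals, with 558 in 2 pieces, 45 in 3, 6 in 4 and 1 in 5. Breaks thus ran both ways, with a slightly larger share in the wild-type list.

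Broken peaks took a larger share of each wider class. None of the 2100 wild-type peaks under 1000 bp was broken, and 16 of 2303 from 1000 to under 2000 bp were, or 0.695%. The share was 6.88% of 1221 peaks of 2000 to under 3000 bp and 22.8% of 1173 of 3000 to under 5000 bp (20.5% to 25.3%). Among the 629 peaks of 5000 bp and over, 341 were broken, which is 54.2% (50.3% to 58.1%). A wide wild-type peak was therefore more often broken than not.

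The same steps were seen among Δasf1 peaks broken by wild-type intervals. Their share was 6.73% from 2000 to under 3000 bp, 25.3% from 3000 to under 5000 bp (22.8% to 28.0%) and 49.9% from 5000 bp on (45.5% to 54.3%). The intervals of both directions overlapped in each width class. When the Δasf1 rates per class were applied to the widths of the wild-type peaks, 9.67% would be broken, against the 9.55% found. The wild-type rates at Δasf1 widths gave 8.41%, against 8.58%. At equal width, the pooled lists thus held about as large a share of broken peaks in either direction.

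**Figure D1:**
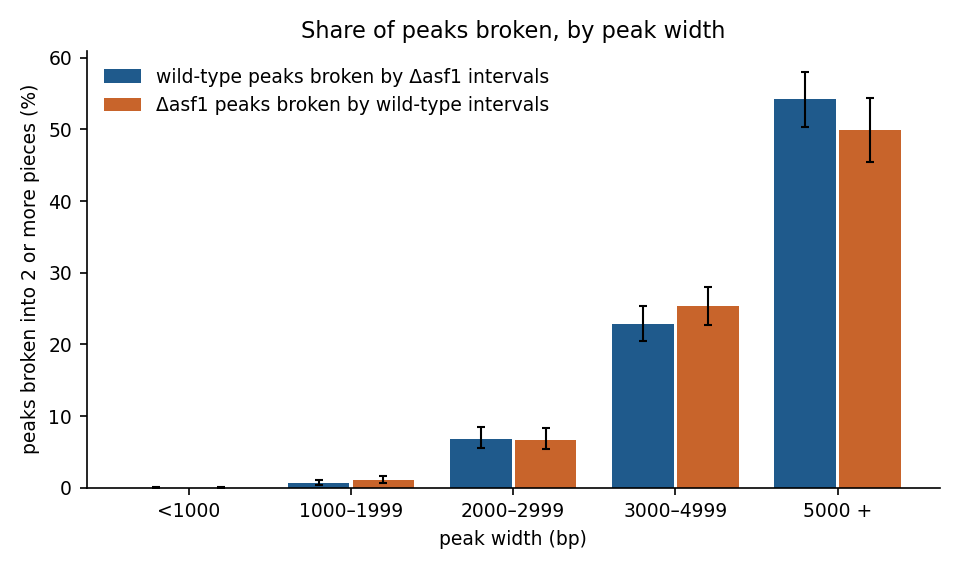
Share of peaks broken into 2 or more pieces (vertical axis, percent) by peak width (horizontal axis, bp), for wild-type peaks broken by Δasf1 intervals (blue) and Δasf1 peaks broken by wild-type intervals (orange); error bars are 95% Wilson intervals over peaks. In both directions the share goes from 0 below 1000 bp to 54.2% and 49.9% at 5000 bp and over.

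The broken wild-type peaks were wide domains. Their median width was 4876 bp (4684 to 5133 bp), with quartiles of 3655 and 6582 bp and a range from 1251 to 22346 bp, against a median of 1634 bp over all wild-type peaks. They held 23.0% of the length under wild-type peaks, 3816 of 16575 kb. Those with 2 pieces had a median width of 4645 bp, those with 3 of 8372 bp, and the 9 with 4 or 5 pieces of 9503 bp.

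Δasf1 pieces covered a median of 56.9% of a broken peak (54.8% to 58.5%), with quartiles of 44.5% and 67.9% and a range from 8.17% to 88.4%. In 248 peaks less than 50% of the length was covered and in 31 less than 25%, whereas at least 75% was covered in 90. Of the summed length, 58.6% lay under pieces, 34.2% in holes and 7.19% in uncovered edges. Most of the uncovered length was inside the domain, which the rule favours. Every broken peak holds a hole, none shorter than 1066 bp, while no uncovered edge is required. In broken Δasf1 peaks, holes took 32.9% of the summed length and uncovered edges 5.09%.

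The covered share was lowest in the narrowest domains. Its median was 29.3% from 1000 to under 2000 bp, 45.0% from 2000 to under 3000 bp, 55.7% from 3000 to under 5000 bp and 62.6% from 5000 bp on. Spearman's rho of width and covered share was 0.429 over the 709 peaks, which share the same lists. A hole of at least 1066 bp takes a larger share of a narrow peak, and this sets an upper limit that rises with width. For wild-type fold enrichment and covered share rho was 0.0852 (n = 709).

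**Figure D2:**
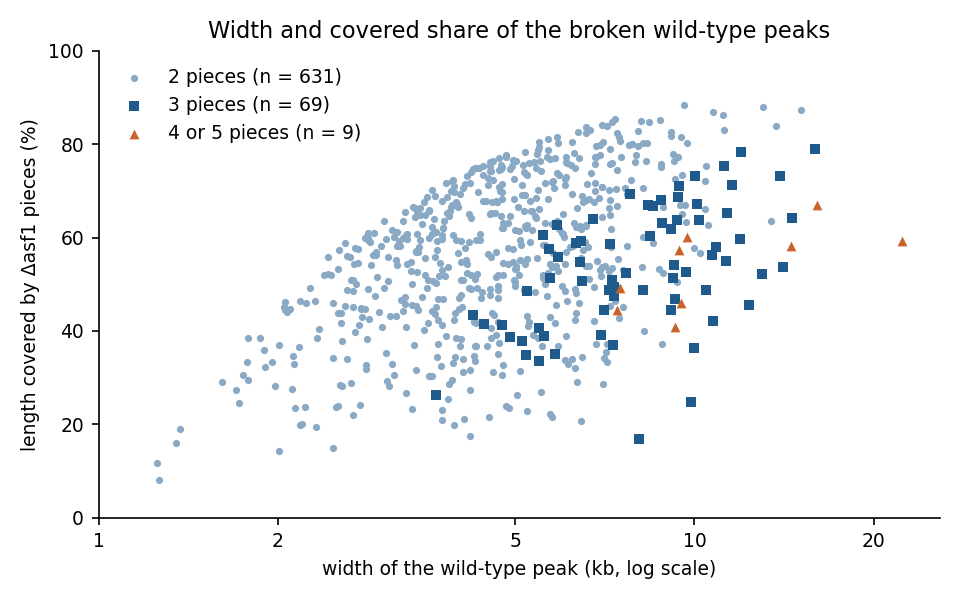
Each point is 1 broken wild-type peak, with its width on a log scale (horizontal axis, kb) and the share of its length under Δasf1 pieces (vertical axis, percent); symbols mark the number of pieces. The upper border of the cloud rises with width, and the peaks with 4 or 5 pieces all lie among the wide ones.

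The 709 domains held 797 holes. Their median length was 1432 bp (1401 to 1472 bp), with quartiles of 1201 and 1793 bp and a range from 1066 to 6255 bp. The lengths crowded at the shortest interval the list allows: 198 holes were under 1200 bp, 443 under 1500 bp and 653 under 2000 bp. Only 144, or 18.1% (15.6% to 20.9%), were 2000 bp or longer.

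Holes in broken Δasf1 peaks were shorter. The 670 holes there had a median of 1334 bp (1302 to 1361 bp), and 84, or 12.5% (10.2% to 15.3%), reached 2000 bp. The broken Δasf1 peaks were also narrower, with a median of 4534 bp, and wild-type pieces covered a median of 60.7% of them (58.2% to 62.7%). If pieces under 2000 bp apart were joined, a setting chosen after the data were seen, 141 wild-type and 80 Δasf1 peaks stayed broken. The medians of hole length lay outside each other's intervals over peaks. The same order held for all intervals between neighbouring peaks, which had a median of 2477 bp (2408 to 2522 bp) in Δasf1 and 2240 bp (2180 to 2292 bp) in the wild type, so longer gaps belonged to the whole Δasf1 list and not to the broken domains alone.

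**Figure D3:**
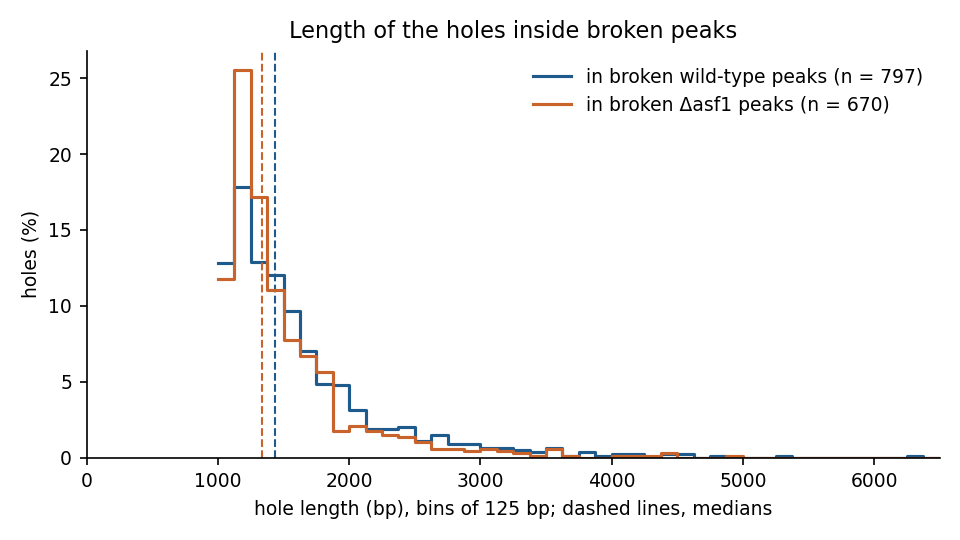
Lengths of the holes (horizontal axis, bp) inside broken wild-type peaks (blue, n = 797) and inside broken Δasf1 peaks (orange, n = 670), as percent of each set; dashed lines mark the medians of 1432 and 1334 bp. Both start abruptly just above 1000 bp and fall off within 1000 bp.

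The domain with the most pieces was also the widest. It lies on chromosome 1 from 2803159 to 2825504, spans 22346 bp and overlaps 8 protein-coding genes. Its 5 Δasf1 pieces measured 2718, 836, 400, 2495 and 6816 bp and left 59.4% of the domain covered. The holes between them were 2338, 2341, 1068 and 1389 bp long. The whole of SMAC4_13048 lay in the first hole and the whole of SMAC4_12974 in the next, and SMAC4_13049 reached into a pair of holes with a piece between them.

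The longest hole was found on chromosome 2, in the domain from 5089064 to 5098915. Its 3 pieces left 24.8% of 9852 bp covered, and its main hole of 6255 bp was 86.1% genic. That hole held SMAC4_07536, SMAC4_07537, SMAC4_07538 and SMAC4_07539 from end to end. The gene table gives no product for any of these genes.

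The other domains with the longest holes differed in what the hole contained. On chromosome 2 from 1444786 to 1458849 a hole of 5286 bp covered SMAC4_04451 completely. On chromosome 1 from 982989 to 989434 a hole of 4552 bp took in 92.5% of SMAC4_05268. On chromosome 4 from 3712486 to 3725488 a hole of 4546 bp held SMAC4_02262. By contrast, the hole of 4829 bp in the domain on chromosome 1 from 7856595 to 7864837 was 5.28% genic, with the 255 bp gene SMAC4_00417 as its sole gene.

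The 5 lowest covered shares belonged to wild-type peaks that bridge a pair of Δasf1 peaks. At 1251 to 2478 bp they were narrow among the broken peaks, though not all among wild-type peaks as a whole. The peak on chromosome 2 from 519525 to 520785 was covered to 8.17%, by 17 and 86 bp at its ends. The peak on chromosome 4 from 1320946 to 1322196 was covered to 11.8%, by 89 and 58 bp. The next ones, on chromosome 6 from 3771088 to 3773097, on chromosome 6 from 994142 to 996619 and on chromosome 1 from 8886993 to 8888338, were covered to 14.4%, 15.0% and 16.0%. In these most of the summed length of the Δasf1 pieces lay outside the wild-type peak, which filled the interval between them.

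Some wide domains were covered nearly throughout. The domain on chromosome 6 from 631317 to 646402 met 2 pieces that covered 87.4% of its 15086 bp, and its hole of 1232 bp lay inside SMAC4_05896. Broken peaks of common width resembled neither extreme. The 2-piece peaks nearest to the median width on each of the 7 chromosomes were 4588 to 4691 bp wide, were covered to between 39.2% and 72.2%, and had a hole of 1187 to 2476 bp.

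**Figure D4:**
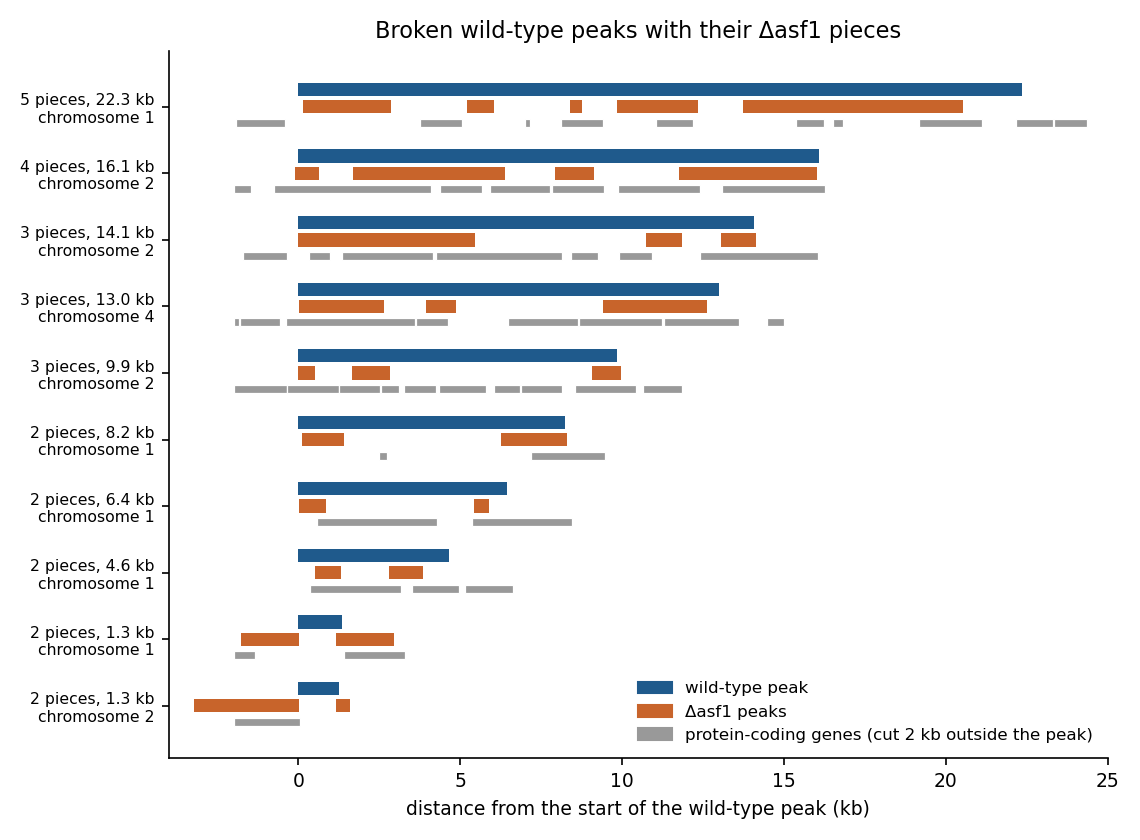
Maps of 10 broken wild-type peaks, with the distance from the start of the wild-type peak on the horizontal axis (kb); each row shows the wild-type peak (blue), the Δasf1 peaks that overlap it (orange) and protein-coding genes (grey). The top row is the domain with 5 pieces, and in the lowest rows the Δasf1 peaks lie mostly outside the wild-type peak.

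The pieces comprised 1496 Δasf1 peaks and were as wide as the others, with a median of 1528 bp against 1522 bp. Their median fold was 1.262 (1.259 to 1.267), against 1.256 (1.254 to 1.258) for the other 5611 Δasf1 peaks. Among these others, the 4362 that met a single wild-type peak had a median of 1.261, so the pieces resembled Δasf1 peaks with a wild-type counterpart.

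Pieces often reached past the border of the domain. In 228 domains they extended beyond both borders, in 342 beyond one, and in 139 all pieces lay within the domain. Among broken Δasf1 peaks, the wild-type pieces all lay within in 79 of 610. The uncovered edge measured a median of 48 bp (29 to 60 bp), and 244 domains had none. Among the pieces, 169 (11.3%) also met another wild-type peak, and 10 were shared by 2 domains. In 543 of the 709 domains, 76.6%, no piece met another wild-type peak, and the same held for 441 of the 610 broken Δasf1 peaks, 72.3%.

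Some domains stood close to the limit of the definition. The smallest overlap of a piece was 7 bp, in 3 domains it was at most 10 bp and in 21 at most 50 bp, with a median of 627 bp. On the other side of the limit, 1 wild-type peak with a single piece had its next Δasf1 peak within 50 bp, at a distance of 1 bp.

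Broken domains were about as enriched as single-piece peaks of the same width. The median fold over background was 1.256 in broken peaks (1.254 to 1.259), 1.250 in all peaks with a single Δasf1 peak and 1.225 in peaks with none. From 3000 to under 5000 bp it was 1.254 in broken peaks, 1.257 in single-piece peaks and 1.227 in the 20 peaks with none. From 5000 bp on the values of broken and single-piece peaks were both 1.260. These folds were averaged over a whole peak by the peak caller, so they say nothing about the holes themselves.

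Holes lay in gene-poorer stretches than the pieces beside them. Protein-coding genes covered 60.5% of the bases in holes and 80.3% of the bases under pieces, compared with 58.0% of the chromosomes. Of the hole centres, 52.3% lay in a gene (48.9% to 55.8%), and of the piece centres 79.9% (77.8% to 81.9%). The share was lower in holes than in pieces on 7 of 7 chromosomes and in 493 of the 709 domains, higher in 153 and equal in 63.

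In the opposite direction the difference between holes and pieces had the same sign but was smaller. In broken Δasf1 peaks genes covered 74.9% of hole bases and 82.9% of piece bases, and 70.3% of the hole centres were in a gene (66.7% to 73.6%). The share was lower in holes than in pieces in 280 of those 610 peaks, higher in 225 and equal in 105. Over all peaks, too, the lists differed, with 71.4% of wild-type and 78.4% of Δasf1 peak bases in genes. Intervals of up to 2000 bp between Δasf1 peaks anywhere were 58.9% genic, close to the 60.5% of the holes, and such intervals between wild-type peaks were 55.8% genic.

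**Figure D5:**
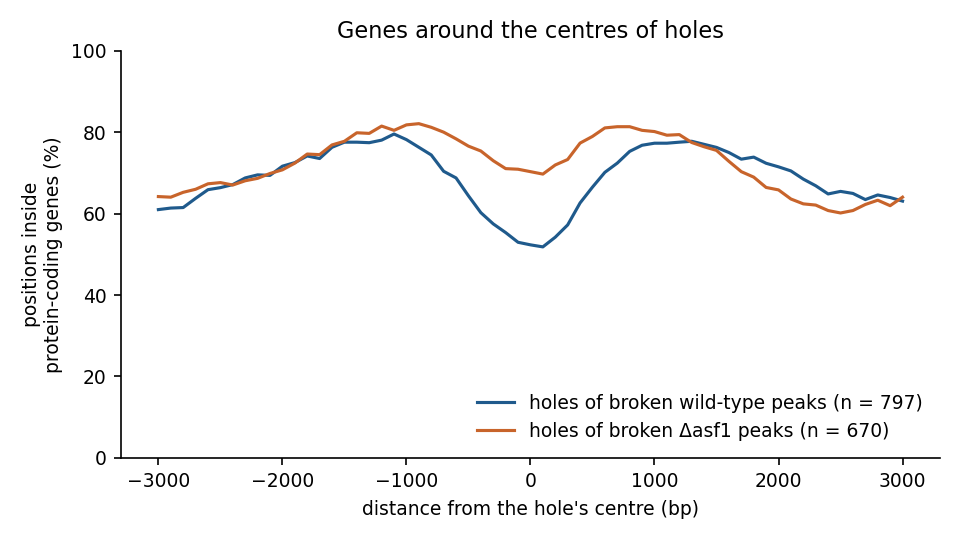
Share of positions inside protein-coding genes (vertical axis, percent) by distance from the centre of a hole (horizontal axis, bp), for holes of broken wild-type peaks (blue, n = 797) and of broken Δasf1 peaks (orange, n = 670). At the centre the blue line falls to 52.3% and the orange line to 70.3%, and both lines lie higher on either side.

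Most holes in wild-type domains lay partly in genes and partly between them. This held for 603 of the 797 holes (75.7%, 72.6% to 78.5%), while 133 (16.7%, 14.3% to 19.4%) lay wholly in genes and 61 overlapped none. In 394 holes (49.4%) 2 or more genes were overlapped. Among the 670 holes of broken Δasf1 peaks, 363 (54.2%, 50.4% to 57.9%) lay partly in genes, 265 (39.6%, 35.9% to 43.3%) wholly in genes and 42 in none, and 226 (33.7%) overlapped 2 or more. Holes across a gene border were thus the more frequent kind in both directions, and holes wholly in genes took a larger share in broken Δasf1 peaks. Other stretches of such lengths were not classed in this way, so crossing a gene border is not shown to be particular to holes. Strand is not annotated, and starts and ends of genes were not distinguished.

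The domains overlapped 1621 of 10309 protein-coding genes (15.7%), with a median of 2 genes per domain and up to 8. Holes met 1109 of these genes and took in over 50% of the length of 211. There were 54 genes wholly in a hole, in 48 holes, with lengths from 153 to 2465 bp. Their median length was 1070 bp, against 1927 bp over all protein-coding genes. Only a gene short enough to fit in a hole could be counted, so this set is short by construction. In broken Δasf1 peaks 19 holes held a whole gene, which is 2.84% (1.82% to 4.39%) against 6.02% (4.57% to 7.89%) of the holes in wild-type domains. The latter holes were also longer, with a median of 1432 bp against 1334 bp, and the shares were not compared at equal hole length.

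Genes for tRNA, short genes that RNA polymerase III transcribes, were rarely in these domains. Of 445 tRNA genes, 10 overlapped a broken wild-type peak, 4 of them in a hole and 4 under a piece. This amounts to 2.62 per Mb, against 11.3 per Mb of the chromosomes. Wild-type peaks of any kind overlapped 54 tRNA genes and Δasf1 peaks 24, so few tRNA genes lay in peaks of either strain.

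Broken domains were spread over the genome. Between 8.23% (chromosome 7) and 9.99% (chromosome 1) of the wild-type peaks of a chromosome were broken, with overlapping intervals. Within 100 kb of a chromosome end 15 of 198 peaks were broken, 7.58% (4.64% to 12.1%), compared with 9.60% farther inside. Within 50 kb the share was 10.5% (10 of 95, 5.82% to 18.3%), so peaks near the ends gave no steady direction. Another broken peak was the neighbour on at least 1 side of 140 broken peaks, 19.7% (17.0% to 22.8%), and of 17.8% (16.9% to 18.7%) of the 6717 unbroken ones. The longest run was 3 peaks.

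A stretch of chromosome 2 from 600000 to 1300000 was examined on its own, because the −log10 q-values of Δasf1 peaks were higher there, with a median of 3.36 against 2.62 elsewhere, although their median fold was 1.246 against 1.258. Their median width there was 1964 bp against 1520 bp. Wild-type peaks had a median −log10 q-value of 2.43 there against 2.20 elsewhere and a median fold of 1.258 against 1.247. In this stretch 11 of 136 wild-type peaks were broken, 8.09% (4.58% to 13.9%), and 14 of 130 Δasf1 peaks, 10.8% (6.52% to 17.3%). Without it 698 domains remained, so its share in the total was small.

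The authors also deposited a list of peaks unique to each strain. The wild-type list held 1388 peaks, of which 1254 met no Δasf1 peak and 130 met one, and it contained 4 of the 709 broken domains, covered to between 8.17% and 16.8%. Of the 1496 pieces, 41 stood in the unique list of Δasf1. Peaks with a single Δasf1 peak stood in the unique list up to a coverage of 9.94% and outside it from 10.0% on. Most broken domains were covered well beyond that, with a 10th percentile of 33.1%. The broken domains in the unique list reached 16.8%, so this limit did not hold for the summed coverage of several pieces.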

How the data were processed

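Per the submitters' processing notes, fastp, Bowtie2 and MACS2 were used, with versions and settings not given in the sources used here. The authors deposited 4 peak lists, a pooled and a unique list per strain, in the column order of MACS2 broad peaks. The deposited lists give a score, the fold enrichment over background as a linear ratio, and the −log10 of the p-value and q-value, each for a whole peak, of which the fold and the q-value were used. Within each pooled list the peak names hold 1 library code, and it is uncertain if both replicates entered it. Depth is unknown, and reads and inputs were not analysed here.

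Peaks that start above 6300000 on chromosome 2, at the rRNA repeats, were left out (4 wild-type, 10 Δasf1). Positions follow assembly version 04 of the wild type and are 1-based. Genes came from the RefSeq table of assembly ASM3387043v1, which gives locus tags and positions but no strand, symbol or product, so no gene list could be matched. Genes covered 71.4% of wild-type peak bases in place and at most 59.9% after shifts of 5000 bp or more, so both use the same coordinates. Overlaps, holes and shares were calculated with Python 3.11.15, numpy 2.4.6, pandas 2.3.3 and scipy 1.17.1, and the functions were tested on simulated intervals. Figures were drawn with matplotlib 3.10.9. No test was made, because the overlap of the lists chose the domains and no list has replicates. Rates per width class, and the same measures in the opposite direction, stood in for a comparison at equal width.

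The members, measures and lists were chosen with earlier results of these data known. Domains named in the text were the 5 with the most pieces, the lowest covered share, the longest hole and the greatest width, and the 2-piece domain of each chromosome nearest to the median width of 2-piece domains, with the genes their holes overlap most. Alternatives changed the minimum overlap, the threshold, the number of peaks, the joining of pieces and the chromosome 2 stretch.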

Additional observations from a re-analysis of the deposited data

How the results depend on the processing

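Of 31 other settings, 26 left the value within its limits. The limits were 1.5 times for a count, and the interval over peaks for a median or for the share near chromosome ends. For the fold, the genic shares and the rates per width class, the limit was a distance set by the width of such an interval. The genic share of holes in broken Δasf1 peaks had a fixed limit. The threshold had the largest effect among the 31 settings. With only peaks whose −log10 q-value reached the median of their list, 184 wild-type and 169 Δasf1 peaks were broken, the median covered share was 60.8% and the median hole 1477 bp. This setting keeps 3713 wild-type and 3554 Δasf1 peaks, so pieces are lost by construction. With the −log10 q-value in place of the fold, the difference between broken and single-piece peaks of equal width was -0.038 on that scale, against -0.0012 in fold. That setting was counted as moved without a limit. Joining pieces under 200 or 500 bp apart, or keeping holes of at least 200 or 500 bp, changed nothing, because no gap was that short. These settings could not move a value and are among the 26 by construction. Of 22 alternatives added after the data were seen, 16 stayed within the limits. Joining pieces under 1500 bp apart left 338 wild-type and 222 Δasf1 peaks broken with a covered share of 54.6%, and joining under 2000 bp left 141 and 80 with 53.1%. A minimum overlap of 100 bp left 659 and 562. With 7107 peaks in each list, 709 and 577 were broken. No paired analysis was possible because the lists are pooled, and no replicate could be left out in turn.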
